A study of Mus musculus with 24 samples.

Results

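The genes described here make, break down, recycle and use glutathione, and were followed in mouse IWAT, the inguinal white fat depot that lies under the skin. They are 10 genes chosen by symbol out of 16821 genes in the count table: Gclc, Gclm and Gss (synthesis), Ggt5, Ggct, Chac2 and Oplah (breakdown and salvage), Gsr (recycling), and Gpx3 and Gpx4 (peroxidases). All 10 were found, and all 10 were among the 15176 genes kept by a filter on low counts. The genes were picked with measured values of these diets already known, and which values were used is not recorded. Their levels, folds and calls between diets are therefore a description and no independent evidence.

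The tissue came from 24 male C57BL6/J mice aged 4 months, 6 per diet, which began the diets at 5 weeks of age and were killed after 12 weeks on them and a 4 h fast. Elemental control mice ate free amino acids as the protein source with 0.86% methionine, and elemental MR (methionine restriction) mice ate the same kind of diet with 0.17% methionine. Casein control mice ate intact casein (0.86% methionine), and oxidized casein MR mice ate casein whose methionine had been destroyed by oxidation and then partly restored to the 0.17% level. On casein, the oxidation and the lower methionine come as 1 change and cannot be told apart. No mouse carried an allele or drug named in the labels. Each library is a separate mouse by its number in the labels, and no batch is named in the labels.

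Glutathione is the main thiol antioxidant of cells and is built from glutamate, cysteine and glycine. Glutamate-cysteine ligase, made of the catalytic subunit Gclc and the modifier subunit Gclm, joins the first pair, and Gss adds glycine. In the gamma-glutamyl cycle the glutamate part is cut off again and passes through 5-oxoproline, which Oplah opens back to glutamate. Methionine is a source of the cysteine through transsulfuration, and cysteine supply is known to limit glutathione synthesis.

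Library totals ran from 7468336 to 19868913 reads. Adipocyte markers (10 of 10 measured) summed to between 20900 and 63100 CPM (reads scaled to library size) in a library, so the tissue label held. The design text names the liver, while hepatocyte markers (10 genes) summed to between 72.4 and 1587 CPM in 23 libraries and to 10410 CPM in elemental control 6. This depot contains a lymph node, and transcripts of it (mean log2 CPM over 15 B cell genes from 4.97 to 6.66, against -0.29 to 2.86) were present in 15 libraries and lacking in 9. They were present in 4 elemental controls, 5 mice on elemental MR, 4 casein controls and 2 mice on oxidized casein MR. In such bulk tissue, fewer cells of a type and less RNA per cell cannot be told apart.

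Levels are CPM of 3′ end tags, with library totals scaled by TMM (trimmed mean of M values). A tag count does not grow with transcript length, so levels can be set beside each other across genes. Gpx3 was by far the most abundant of the genes, at 623 ± 236 CPM over all diets (SD, n = 24). Oplah followed at 77.5 ± 28.1 CPM and Gpx4 at 46.8 ± 13.8 CPM. Gclm stood at 27.5 ± 7.59 CPM, Gclc at 24 ± 9.58 CPM, Ggt5 at 17.2 ± 4.44 CPM and Gsr at 15.7 ± 3.57 CPM. Ggct (10.3 ± 2.52 CPM) and Gss (9.83 ± 1.48 CPM) were lower and near each other, and Chac2 was barely present at 1.94 ± 0.73 CPM, with 4 to 46 reads per library. Neighbours in this order from Gclm to Gss differed by less than the sum of their spreads over mice.

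**Figure D1:**
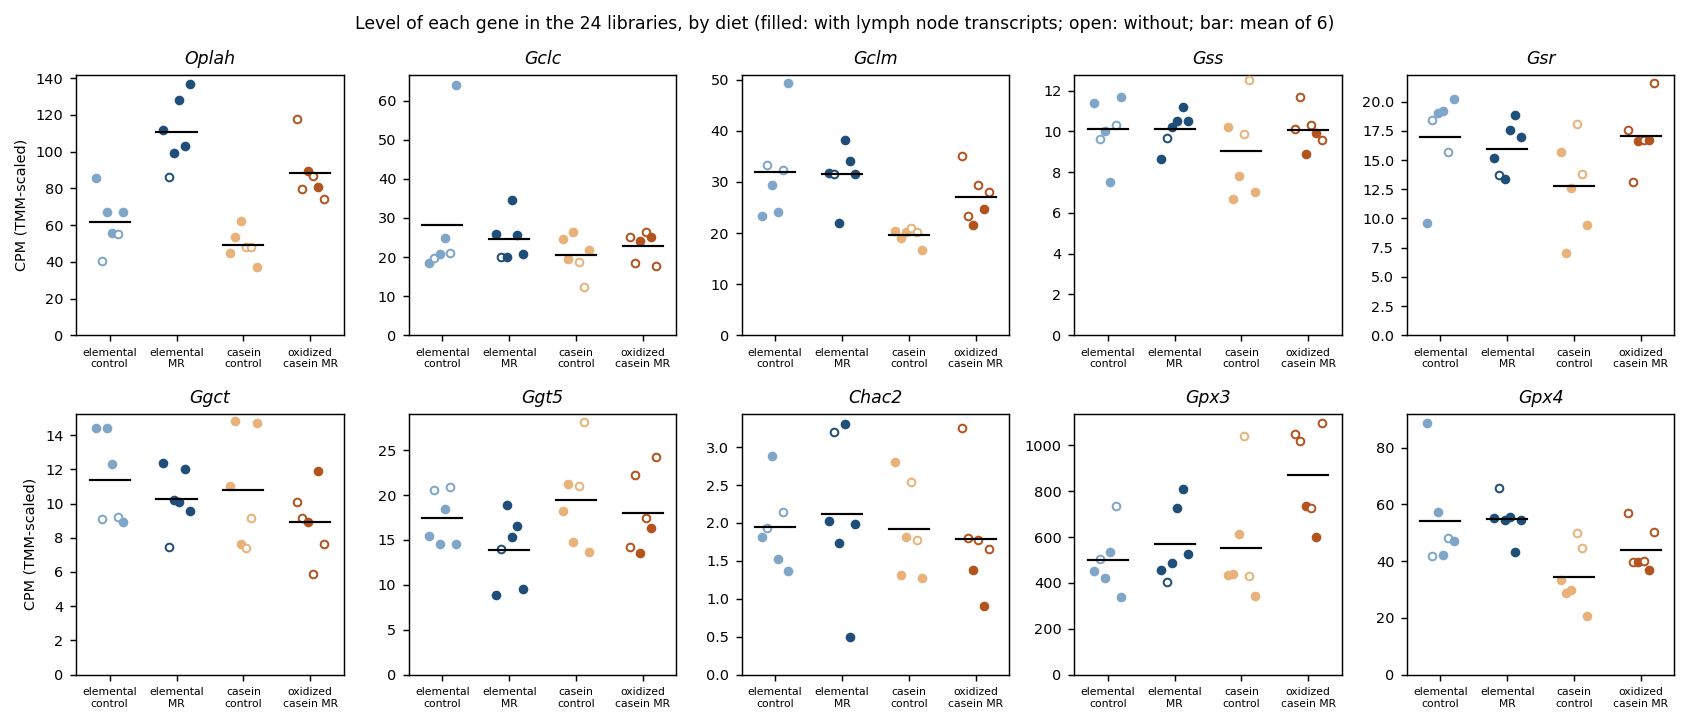
Each panel plots 1 gene, with the level in CPM on a linear axis from 0 against the 4 diets. Points are mice, filled where the library had lymph node transcripts and open where it had not, and bars are means of 6. Oplah is the only panel here in which both MR groups lie wholly above their own controls. The share of all genes separated in this way was not computed.

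With MR, Oplah was called higher on both protein sources, while none of the other 9 genes was called in either MR comparison. A call means an adjusted p under 0.05 in edgeR's quasi-likelihood test, with Benjamini-Hochberg adjustment over all 15176 genes. The MR comparison on elemental amino acids called 1 of the 10 genes, against 0.244% of all genes (37 genes, or 7 to 252 with single libraries left out, the most without elemental control 1). On casein it was again 1 of 10, against 3.82% of all genes. Medians over the 10 genes were log2 fold changes of -0.01 and 0.25, beside -0.02 and -0.06 over all genes tested.

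Oplah encodes 5-oxoprolinase, the ATP-using enzyme that returns 5-oxoproline to glutamate. In elemental controls its lowest, median and highest levels were 40.6, 61.4 and 85.6 CPM, and with elemental MR they were 86.0, 107 and 137 CPM. All 6 MR mice lay above all 6 controls, although the highest control and the lowest MR mouse nearly touched. The log2 fold change was 0.84 (SE 0.16, 1.79-fold, edgeR adjusted p = 0.0204). In casein controls Oplah ran from 37.0 through a median of 48.0 to 62.4 CPM, and in oxidized casein MR from 74.2 through 83.6 to 118 CPM. These groups were apart by a clear gap, with a log2 fold change of 0.85 (SE 0.16, edgeR adjusted p = 0.00465).

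The MR effects on Oplah were of nearly the same size on the 2 protein sources. Their difference was 0.01 on the log2 scale, with a 95% interval from -0.45 to 0.46 (edgeR adjusted p = 0.997). Differences inside that interval remain compatible with these values from 6 mice per diet. On either methionine level the casein-based diet gave lower values, by -0.34 (SE 0.16) between controls and by -0.33 (SE 0.16) between MR groups on the log2 scale. Neither of these passed (edgeR adjusted p = 0.373 and 0.71). Averaged over the protein sources, the MR log2 fold change was 0.84 (SE 0.11, edgeR adjusted p = 8.21e-05), in a comparison that calls 6.99% of all genes and uses the same libraries.

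Oplah's levels are given here for libraries split by lymph node transcripts. All 6 MR mice lay above all 6 controls on each protein source, so any subset is separated too. The split is therefore a description and no further check. With them, elemental controls stood at 55.7 to 85.6 CPM (n = 4) and elemental MR at 99.0 to 137 CPM (n = 5), and casein controls at 37.0 to 62.4 CPM (n = 4) against 80.6 and 89.5 CPM with oxidized casein MR. Without them, elemental controls were at 40.6 and 55.3 CPM against 86.0 CPM in the 1 elemental MR mouse. Casein controls without them were at 47.8 and 48.3 CPM against 74.2 to 118 CPM (n = 4). Log2 fold changes on elemental amino acids were 0.752 with and 0.906 without lymph node transcripts, and on casein 0.762 and 0.959. None of these 4 passed in the smaller sets (edgeR adjusted p = 0.0878, 0.536, 0.17 and 0.0519). The elemental call was lost when elemental control 2, 4 or 5 or elemental MR 4 or 6 was left out (log2 fold change 0.732 to 0.812, edgeR adjusted p = 0.0549 to 0.0721), and the casein call was kept in all 24 such fits.

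Markers of other cells had these levels. Summed markers of adipose progenitors (10 genes) ran from 1600 to 4100 CPM in elemental controls and 1040 to 1720 CPM with elemental MR, and from 1510 to 4080 CPM in casein controls and 1450 to 2860 CPM with oxidized casein MR. Macrophage markers (10 genes) summed to 599 to 1080 CPM against 270 to 909 CPM, and to 637 to 998 CPM against 386 to 861 CPM. These ranges overlapped. With MR on elemental amino acids, 0 of the 10 progenitor and 0 of the 10 macrophage markers were called by edgeR (6 and 7 at an unadjusted p under 0.05). On casein 0 and 1 were called (1 and 3 at an unadjusted p under 0.05). In each list 10 of 10 had negative log2 fold changes on elemental amino acids and 9 of 10 on casein. Over all 15176 genes 8180 and 8818 were negative. Averaged over both protein sources, 3 progenitor and 3 macrophage markers were called lower, beside 6.99% of all genes called in either direction. No marker of either list was at 0 in every library. Ucp1, a gene of thermogenic fat cells, had means of 480 CPM in elemental controls and 1840 CPM with elemental MR. On casein its means were 140 CPM in controls and 1040 CPM with oxidized casein MR. The part of these genes in Oplah's values was not tested.

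Oplah lies on the minus strand of chromosome 15 at 76296601 to 76328015 (GRCm38, GENCODE M21). Its 3′ end shares 296 exon bases with that of Smpd5, a sphingomyelinase gene on the other strand, and its other end shares 385 with Exosc4. Whether the authors counted by strand is not stated in the labels, so antisense reads could not be told apart. Smpd5 was itself low, at 0.74 to 6.26 CPM over the 24 libraries. Its log2 fold changes with MR were -0.50 (SE 0.40) and -0.62 (SE 0.41), opposite in sign to Oplah and not called (edgeR adjusted p = 0.763 and 0.482).

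Over the 24 libraries, the genes whose log2 CPM were most like Oplah's were Acadl (Pearson r = 0.976), Slc25a20 (0.963), Hadh (0.963), Rmdn1 (0.962) and Cpt2 (0.96). Acadl and Hadh are dehydrogenases of fatty acid oxidation, and Slc25a20 and Cpt2 carry fatty acids into mitochondria as carnitine esters and release them there. These correlations span the diets and share library depth and tissue makeup, so they are a description. The genes were picked by likeness to Oplah, whose levels differed between MR and control. Their MR folds, calls and lack of overlap given next are tied to that choice. They are a description too and no independent evidence. With MR on casein, Acadl was called higher, with a log2 fold change of 0.95 (SE 0.20, edgeR adjusted p = 0.00875), as were Hadh at 0.70 (SE 0.15, edgeR adjusted p = 0.0101) and Cpt2 at 0.82 (SE 0.20, edgeR adjusted p = 0.0168). On elemental amino acids their values were 0.76, 0.54 and 0.70 and did not pass (edgeR adjusted p = 0.115, 0.15 and 0.144). Slc25a20 ran from 48 to 138 CPM in elemental controls and from 155 to 256 CPM with elemental MR, without overlap. On casein it ran from 35.8 to 79.2 CPM in controls and from 92 to 165 CPM with MR, also without overlap. Rmdn1 had means of 43.9 and 74.1 CPM in elemental control and elemental MR. In casein control and oxidized casein MR its means were 30.4 and 52.8 CPM. Among the other 9 of the 10 genes, r with Oplah ran from -0.54 (Ggt5) to 0.56 (Gpx4).

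**Figure D2:**
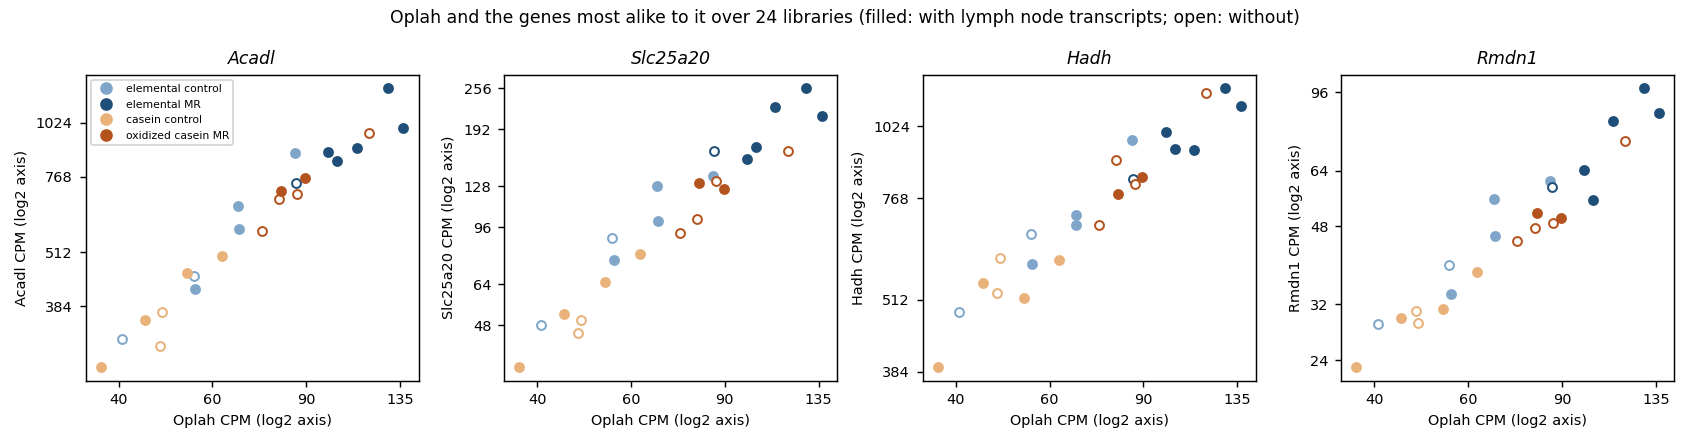
Oplah (x axis) is plotted against 4 of the 5 genes most like it (y axis), in CPM on log2 axes, with 1 point per library coloured by diet and open where lymph node transcripts were absent. Points follow 1 rising line (r from 0.962 to 0.976), with casein controls low and elemental MR high on it.

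Synthesis genes showed no call with MR. Gclc, the catalytic subunit, had medians of 20.9, 23.2, 20.6 and 24.7 CPM in elemental control, elemental MR, casein control and oxidized casein MR. Its ranges overlapped in every comparison, with MR log2 fold changes of -0.20 (SE 0.25) and 0.16 (SE 0.25). Gclc was higher in libraries with lymph node transcripts (log2 difference 0.45, SE 0.19), a set that includes elemental control 6. Elemental control 6 stood alone at 64.1 CPM, where the next highest of its group had 25.0 CPM. That library also had the hepatocyte transcripts given above, with Alb, serum albumin, at 5610 CPM, and their part in Gclc's level was not tested. Without it the elemental MR log2 fold change of Gclc was 0.221 in place of -0.201, and the difference between controls fell from -0.462 to -0.04.

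Gclm, the modifier subunit that raises the ligase's affinity for glutamate, had its lowest levels in casein controls. In casein controls it ran from 16.7 through a median of 20.2 to 20.9 CPM, the tightest of its groups. Elemental controls stood at 23.4, 30.9 and 49.4 CPM (lowest, median, highest), elemental MR at 22.0, 31.6 and 38.3 CPM, and oxidized casein MR at 21.5, 26.5 and 35.1 CPM. No casein control mouse reached the lowest mouse of any other diet. Between controls 0.659% of all genes were called, and 98 of these 100 genes were lower on casein. Gclm was the only one of the 10 genes called there. It was lower on casein, with a log2 fold change of -0.71 (SE 0.16, edgeR adjusted p = 0.0363). That call was lost when any of 13 libraries was left out (elemental control 3, 5 or 6, elemental MR 1, 2, 5 or 6, casein control 1, 2, 3, 4 or 6, or oxidized casein MR 4), with log2 fold changes from -0.544 to -0.729 and edgeR adjusted p from 0.0503 to 0.119. Markers of muscle and liver had wide ranges in the controls. The 10 muscle markers summed to 37.3 to 12900 CPM in elemental controls and 23.5 to 401 CPM in casein controls, and the 10 hepatocyte markers to 195 to 10400 CPM and 72.4 to 1040 CPM. None of these genes was called by edgeR, while each had an unadjusted p under 0.05, and none was at 0 in every library. The liver range is set by elemental control 6 (10410 CPM, against at most 1442 CPM in the other elemental controls), and the muscle gene Acta1 was highest in elemental control 2 (2950 CPM, against at most 79.4 CPM). Their part in Gclm's level was not tested. Without elemental control 6 the log2 fold change was -0.544 (edgeR adjusted p = 0.0951), and without the 2 libraries highest in Acta1 (elemental control 2 and elemental MR 2) it was -0.668 (edgeR adjusted p = 0.0545).

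With MR on casein Gclm's groups did not overlap, yet it did not pass over all genes (log2 fold change 0.46, SE 0.16, edgeR adjusted p = 0.114). On elemental amino acids the MR value was -0.02 (SE 0.16). The difference between these effects was 0.49 (95% interval 0.02 to 0.95, unadjusted p = 0.0397, edgeR adjusted p = 0.91). It was the only one of the 10 genes with an unadjusted p under 0.05 there, and none passed after adjustment in edgeR. Over all genes that test called 0 genes (0%), with 506 at an unadjusted p under 0.05, and DESeq2 called 2 and limma voom 0.

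Gclm lies on the plus strand of chromosome 3 at 122245557 to 122270732 (GRCm38). Its promoter is shown because Gclm is a textbook target of NRF2, the transcription factor of the antioxidant response, and was the synthesis gene that differed between diets. The 250 bases before its start (RefSeq, GRCm38.p6, chr3:122245307-122245556, plus strand) hold 1 match to the core of the antioxidant response element, searched as TGACNNNGC or TGAGNNNGC on both strands. The match is in capitals, reads as TGACNNNGC on the minus strand, begins 134 bases before the start and overlaps no other match.
Gclm promoter: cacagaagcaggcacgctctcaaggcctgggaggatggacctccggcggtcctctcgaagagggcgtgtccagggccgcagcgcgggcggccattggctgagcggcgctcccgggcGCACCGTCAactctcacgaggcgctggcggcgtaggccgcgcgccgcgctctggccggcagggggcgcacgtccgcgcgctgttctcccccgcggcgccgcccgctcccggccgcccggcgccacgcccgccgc
Of the 6 genes with a promoter in the RefSeq table (Gclm, Gss, Ggct, Chac2, Gpx3 and Gpx4), 2 held a match, Gclm and Ggct. Of all 32851 promoters of this length 23% do, counted per promoter. Gpx4 has several promoters there, so the count of genes and this share are not like for like. Ggct's match, GCGACGTCA on the gene's strand, begins 174 bases before its start. Ggct did not move with Gclm over the libraries (r = -0.21). A match is a description of the letters and no evidence of binding.

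Gss, glutathione synthetase, varied least of all 10 genes, with a coefficient of variation of 15% over the 24 libraries. Its medians were 10.2, 10.4, 8.85 and 9.98 CPM in elemental control, elemental MR, casein control and oxidized casein MR. Every pair of groups overlapped, and MR log2 fold changes were 0.00 (95% interval -0.29 to 0.30) and 0.16 (-0.14 to 0.45). Gss shares 395 exon bases with Acss2 on the other strand. Acss2 differed between controls (153 CPM on elemental amino acids and 62.9 CPM on casein), while Gss had 10.1 and 9.01 CPM.

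Among the breakdown genes besides Oplah, none was called in any of the 6 comparisons. Ggt5, a gamma-glutamyltransferase of the cell surface that also trims leukotriene C4, had MR log2 fold changes of -0.33 (SE 0.20) and -0.12 (SE 0.20). Elemental MR mice ran from 8.92 through 14.6 to 18.9 CPM and elemental controls from 14.5 through 16.9 to 20.9 CPM, so 3 MR mice lay below all controls and the rest among them. Ggt5 was lower in libraries with lymph node transcripts (log2 difference -0.37, SE 0.13), and Ggct was higher in them (0.46, SE 0.13). Ggct, the cyclotransferase that makes 5-oxoproline, had MR values of -0.15 (95% interval -0.55 to 0.26) and -0.27 (-0.68 to 0.14). Oplah is the next enzyme on the same route, and its 95% intervals (0.51 to 1.17 and 0.52 to 1.17) lay wholly above those of Ggct. Chac2, which cuts glutathione inside cells, had values of 0.14 (95% interval -0.57 to 0.85) and -0.11 (-0.84 to 0.61), too wide at 4 to 46 reads per library to place it.

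Gsr, glutathione reductase, regenerates glutathione from its oxidized dimer with NADPH. In elemental control, elemental MR, casein control and oxidized casein MR its medians were 18.7, 16.1, 13.2 and 16.7 CPM. Values overlapped in every pair of groups, with casein controls reaching lowest (7.01 CPM). The MR log2 fold change was 0.41 on casein (SE 0.19, edgeR adjusted p = 0.284) and -0.09 on elemental amino acids (SE 0.19). Casein control against elemental control gave -0.41 (SE 0.19, edgeR adjusted p = 0.366). Over the libraries Gsr was most like Gclm among the 10 genes (r = 0.61, and 0.49 after removing diet means).

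Gpx3, the secreted peroxidase found in plasma, was highest with oxidized casein MR, at 600 through a median of 877 to 1100 CPM. Casein controls ran from 345 through 439 to 1040 CPM, elemental controls from 339 through 480 to 736 CPM, and elemental MR from 403 through 508 to 812 CPM. Casein control 4, at 1040 CPM, lay among the highest MR mice, casein control 3, at 613 CPM, lay just above the lowest MR mouse, and the other 4 casein controls lay below all MR mice. The log2 fold change on casein was 0.66 (SE 0.25, edgeR adjusted p = 0.158). Without casein control 4 it was 0.944 and passed (edgeR adjusted p = 0.0181), and without that library the average over both protein sources passed as well (0.568, edgeR adjusted p = 0.0209). On elemental amino acids the value was 0.19 (SE 0.25). The difference between the MR effects was 0.47 (SE 0.35, edgeR adjusted p = 0.91).

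Gpx3 was read beside measures of tissue makeup. Its level was lower in libraries with lymph node transcripts (log2 difference -0.42, SE 0.18), which only 2 of 6 oxidized casein MR libraries had. Libraries with them stood at 600 and 737 CPM with oxidized casein MR and 345 to 613 CPM in casein controls (n = 4). Without them the values were 728 to 1100 CPM (n = 4) against 430 and 1040 CPM. With the lymph node fitted as a term, the casein log2 fold change was 0.533 (edgeR adjusted p = 0.174). In the libraries lacking lymph node transcripts, the Gpx3 average over both protein sources was -0.052 in place of 0.426. That average takes in 1 elemental MR library, at 403 CPM, against 506 and 736 CPM in 2 elemental controls. On casein the Gpx3 log2 fold change stayed positive under every alternative, with 0.459 the lowest. Summed adipocyte markers were 31900 to 63100 CPM with oxidized casein MR and 20900 to 46500 CPM in casein controls, with all 10 measured and none at 0. These sums overlapped and include Cfd, with means of 15900 CPM with oxidized casein MR and 8510 CPM in casein controls. On casein 8 of the 10 markers had positive log2 fold changes and 2 had negative ones. Of them 3 were called higher, beside 3.82% of all genes called. The part of these in Gpx3's level was not tested. The genes most like Gpx3 were Cfd, the adipokine adipsin (r = 0.781), Cenpv (0.76), Nfia (0.754), Mlana (0.742) and Bag4 (0.741), of which Mlana lay between 0.0909 and 2.27 CPM.

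Gpx4, which reduces lipid peroxides in membranes, stood lower in casein controls than in elemental controls. Casein controls ran from 20.8 through 31.5 to 49.8 CPM and elemental controls from 41.8 through 47.6 to 88.5 CPM, and 4 of 6 casein controls lay below all elemental controls. The log2 fold change was -0.65 (SE 0.19, edgeR adjusted p = 0.117). It passed in DESeq2 (-0.645, adjusted p = 0.0429) and with the lymph node fitted (-0.688, edgeR adjusted p = 0.0449). In the subset of libraries where lymph node transcripts were present (4 controls on each protein source) it passed too (-1.05, edgeR adjusted p = 0.0203). In the rest, with only 2 controls on each protein source, it was 0.051. Without elemental control 1, at 88.5 CPM, it was -0.444. Elemental MR ran from 43.1 through 54.9 to 65.7 CPM and oxidized casein MR from 36.8 through 39.8 to 57.1 CPM. MR log2 fold changes were 0.02 (SE 0.19) and 0.35 (SE 0.19) and did not pass (edgeR adjusted p = 1 and 0.394). Between the 2 MR diets none of the 10 genes was called, beside 0% of all genes, where 1060 genes had an unadjusted p under 0.05 and DESeq2 called 12 and limma voom 0. The members at an unadjusted p under 0.05 there were Oplah (0.0455) and Gpx3 (0.0198).

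**Figure D3:**
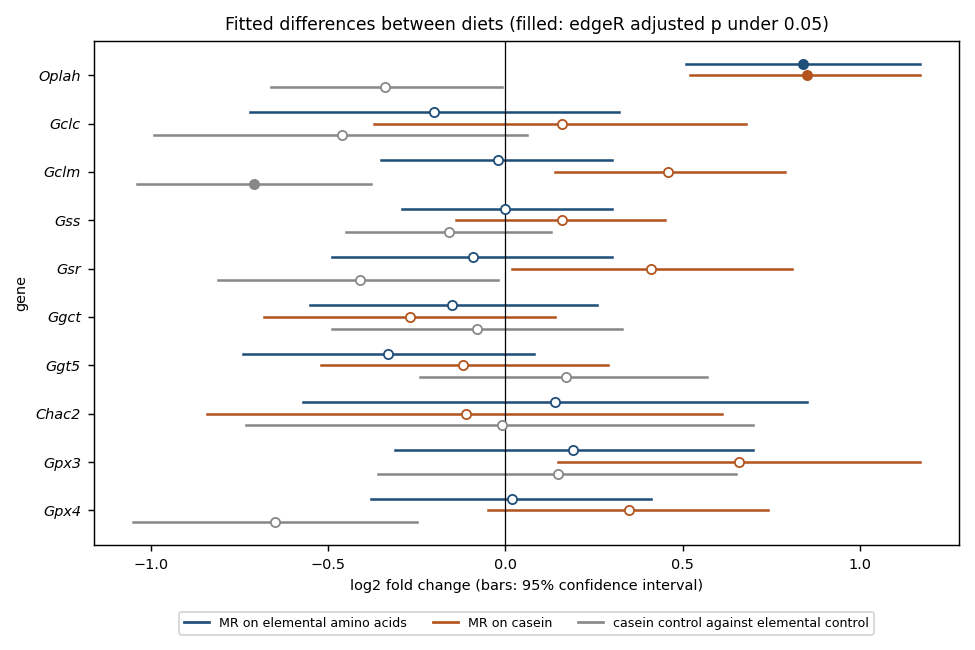
Log2 fold changes (x axis) of the 10 genes (y axis) are shown for MR on elemental amino acids, MR on casein and casein control against elemental control, with 95% confidence intervals as bars and filled points for calls. Oplah is filled in both MR comparisons (0.84 and 0.85) and Gclm between the controls (-0.71).

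Other genes of the pathway were taken from lists of genes by function, chosen with earlier results of these data known. Counts of calls in these lists, here and in the paragraphs that follow, are therefore a description and no independent evidence. Of 30 further genes of the gamma-glutamyl cycle, glutathione transport and glutathione-using enzymes, 27 could be tested. On elemental amino acids 0 were called by edgeR (4 at an unadjusted p under 0.05), and on casein 2 of 27 rose and none fell, beside 3.82% called over all genes. The pair that rose were Slc25a39, the carrier that brings glutathione into mitochondria, and Gpx8, a peroxidase of the endoplasmic reticulum. The list's median log2 fold changes were -0.08 and 0.03, beside -0.02 and -0.06 over all genes. Single genes of the list ran from -0.81 to 0.49 on elemental amino acids and from -1.36 to 0.89 on casein.

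Slc25a39 went from 126 to 172 CPM in 5 casein controls and 85.0 CPM in the sixth to 180 through 317 CPM with oxidized casein MR, so the groups did not overlap. Its log2 fold change was 0.74 (SE 0.17, edgeR adjusted p = 0.0145), and the call was kept whichever library was left out. On elemental amino acids it was 0.49 (SE 0.17, edgeR adjusted p = 0.274), with overlapping groups. Averaged over both protein sources, 4 of the 27 were called, beside 6.99% over all genes, and all 4 were higher, namely Slc25a39 (0.61, SE 0.12, edgeR adjusted p = 0.0023), Gpx8 (0.45, SE 0.12), Glrx5 (0.42, SE 0.12) and Glrx (0.44, SE 0.13). The casein call of Gpx8 was lost without casein control 1 (0.581, edgeR adjusted p = 0.0836) or 6 (0.507, edgeR adjusted p = 0.0755). The averaged call of Glrx was lost without elemental control 2, 4 or 6, elemental MR 3 or 4, casein control 1 or 4, or oxidized casein MR 1, 2 or 3 (0.39 to 0.435, edgeR adjusted p = 0.0525 to 0.0694). Glrx5 and Glrx are glutaredoxins, which use glutathione to reduce disulfides or to pass on iron-sulfur clusters. The cystine importer Slc7a11 and the stress-induced Chac1 were not called, and Chac1 had MR log2 fold changes of 0.11 (SE 0.47) and 0.56 (SE 0.48).

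Of 28 genes of the NRF2 pathway, 0 were called by edgeR with MR on elemental amino acids (3 at an unadjusted p under 0.05) and 3 rose on casein, beside 3.82% over all genes. The casein count was 0 without casein control 6 or oxidized casein MR 1, 5 without elemental MR 5, 6 without elemental control 2, casein control 5 or oxidized casein MR 6, and 7 without elemental control 1. Under the other alternatives it ran from 0 to 9. The 3 called genes were Me1 (0.85, SE 0.21, edgeR adjusted p = 0.0205), Taldo1 (0.67, SE 0.17, edgeR adjusted p = 0.0211) and Gsta4 (0.60, SE 0.16, edgeR adjusted p = 0.0287). Leaving out casein control 6 or oxidized casein MR 1 ended the calls of Me1 (0.724 and 0.743, edgeR adjusted p = 0.0564 and 0.0549) and of Taldo1 (0.574 and 0.552, edgeR adjusted p = 0.0627 and 0.0557). Either of these libraries, or casein control 1, 2 or 5, ended that of Gsta4 (0.522 to 0.61, edgeR adjusted p = 0.0512 to 0.0894). Me1 makes NADPH from malate, Taldo1 belongs to the pentose phosphate pathway, and Gsta4 conjugates lipid aldehydes to glutathione. Me1 and Taldo1 were also called lower in casein control than in elemental control (-1.31, SE 0.21, and -0.75, SE 0.17), as was Tkt, transketolase (-1.70, SE 0.28), which was named after its value was seen. The Taldo1 call between controls was lost without elemental control 1, 3 or 5 or casein control 1, 3, 4 or 6 (-0.62 to -0.772, edgeR adjusted p = 0.0505 to 0.109). These casein comparisons share the casein controls, in which Gclm was low too. Of the 100 genes called between controls, 98 were lower in casein controls. Nqo1, a classical NRF2 target, had 3.49 and 1.83 CPM in elemental control and elemental MR and a log2 fold change of -0.93 (SE 0.28, edgeR adjusted p = 0.187). Nfe2l2, which encodes NRF2, had values of -0.03 and -0.07 (SE 0.12 each). Over the 28 genes, MR log2 fold changes ran from -1.56 to 0.62 on elemental amino acids and from -1.36 to 1.03 on casein.

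Averaged over both protein sources, 3 NRF2 pathway genes rose, Taldo1 (0.49, SE 0.12), Maff (0.83, SE 0.25, edgeR adjusted p = 0.0406) and Srxn1 (0.49, SE 0.15, edgeR adjusted p = 0.0424), and 1 fell, beside 6.99% called over all genes. With single libraries left out the count of called genes ran from 2 (without elemental control 2, 4 or 5, elemental MR 4, casein control 1, 3 or 6, or oxidized casein MR 1) to 8 without casein control 5 and 9 without elemental control 1, and under the other alternatives from 0 to 10. The call of Maff was lost when any of 13 libraries was left out (elemental control 2, 4, 5 or 6, elemental MR 4 or 6, casein control 1, 2, 3 or 6, or oxidized casein MR 1, 5 or 6), at 0.717 to 0.852 with edgeR adjusted p = 0.051 to 0.0849. The gene that fell was Gsta3, a glutathione transferase, at -1.13 (SE 0.26, edgeR adjusted p = 0.00706). Gsta3 had 31.8 to 137 CPM in elemental controls and 11.2 to 27.7 CPM with elemental MR, without overlap, and did not pass there alone (-1.56, SE 0.37, edgeR adjusted p = 0.0775). Its highest library, at 137 CPM, was elemental control 6, the library highest in hepatocyte transcripts.

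Gpx3 and Gpx4 carry selenocysteine, and 22 genes of selenoprotein synthesis and other selenoproteins were read beside them. Of these, 0 were called by edgeR with MR on elemental amino acids (3 at an unadjusted p under 0.05) and 1 of 22 rose on casein, a share near the 3.82% called over all genes. It was Sephs2, which makes the selenium donor for selenocysteine, at 32.9 CPM in casein controls and 55.3 CPM with oxidized casein MR (log2 fold change 0.75, SE 0.20, edgeR adjusted p = 0.0301). The groups did not overlap, yet the call was lost without casein control 1, 4 or 6 or oxidized casein MR 1 (0.612 to 0.728, edgeR adjusted p = 0.0597 to 0.0924). Selenop, the selenium transport protein, had values of -0.44 (SE 0.15, edgeR adjusted p = 0.261) and -0.13 (SE 0.15). Gpx1, the abundant cytosolic peroxidase, had -0.30 (SE 0.15) and -0.11 (SE 0.15). The list's medians were -0.04 and 0.03.

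**Figure D4:**
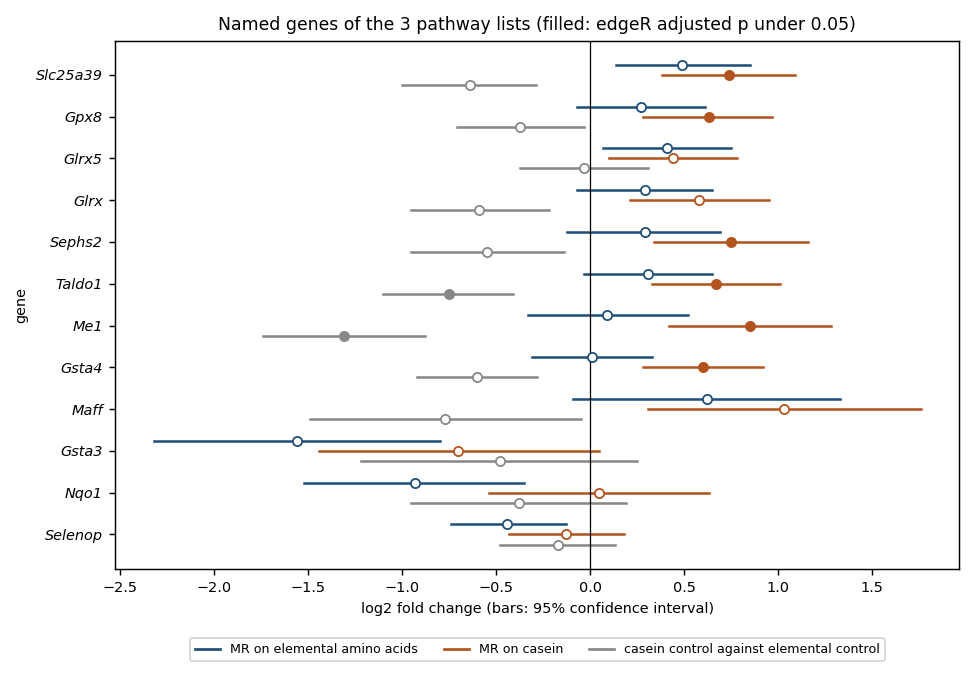
Log2 fold changes (x axis) of 12 named genes of the 3 lists (y axis) are shown for the same 3 comparisons, with 95% confidence intervals as bars and filled points for calls. The 6 filled points of MR on casein are Slc25a39, Gpx8, Sephs2, Taldo1, Me1 and Gsta4, and no point of MR on elemental amino acids is filled.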

How the data were processed

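The authors deposited raw counts per Ensembl gene from 3′ end QuantSeq libraries with 50 bp forward reads, per the labels' protocols, and a normalized signal table. The deposited signal values equal the counts divided by a size factor per library (largest relative difference 5.3e-15). R 3.4.3, DESeq2 1.18.1, GRCm38 and mm10 are named in the submitters' processing notes. The smallest gene total in the table is 72 reads. Aligner, counter and strandedness: not stated in these labels.

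Symbols came from the signal table, and tests used the raw counts. In edgeR 4.0.16 (R 4.3.3), filterByExpr by diet kept 15176 genes and removed 1645, TMM scaled the totals, and a quasi-likelihood model, giving each diet its own mean, took in all 24 libraries. The 6 comparisons were 2-sided, with Benjamini-Hochberg adjustment over all genes and a threshold of 0.05. Each SE is the fold change over the root of F. Log2 CPM used a prior count of 2, and a mean over 4 for the B cell list marked lymph node transcripts. Alternatives used DESeq2 1.42.0 and limma 3.58.1 as well. The fit was tested on simulated counts.

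The 10 genes and the lists were chosen with earlier results of these data known. Text names the 10 genes, the 5 genes most correlated with Oplah and with Gpx3, list genes past the threshold in an MR comparison (up to 8 by p, or the 3 with the smallest p), and further genes as background. Reads lack molecular identifiers, so precision came from the spread between mice.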

Additional observations from a re-analysis of the deposited data

Results flagged for a closer look

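Of 40 sets of 6 mice (10 genes in 4 diets), 3 had a mouse far from the other 5 of its diet by Dixon's test at the 95% level, where chance flags about 1 set in 20. Oplah was 118 CPM in oxidized casein MR 1 against at most 89.5 CPM in the others. Gclc was 64.1 CPM in elemental control 6 against at most 25.0 CPM. Gpx4 was 88.5 CPM in elemental control 1 against at most 57.4 CPM.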

How the results depend on the processing

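The number of the 10 genes called was 1 with MR on elemental amino acids, on casein and averaged over both, and 1 between controls. With MR on elemental amino acids it was 0 within libraries with lymph node transcripts, 0 within those without, and 0 with only the 2 diets compared in the fit, and with MR on casein 0 in both of those library sets. Between controls it was 2 in DESeq2 and 2 once the lymph node was fitted (Gclm and Gpx4), and 1 within libraries with lymph node transcripts, where the gene was Gpx4 and not Gclm. It was 0 in limma voom, within libraries without lymph node transcripts, without the 2 libraries highest in Acta1 and with only the 2 diets in the fit. With single libraries left out it ran from 0 to 1 on elemental amino acids, 1 to 2 on casein, 1 to 2 averaged and 0 to 1 between controls. The smaller fits hold fewer samples, and the cause of these changes in the count was not tested. Oplah's MR log2 fold changes stayed positive under every alternative run (0.732 to 0.934 on elemental amino acids, 0.736 to 0.959 on casein).

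Over all genes the counts were 37, 579, 1061 and 100 for MR on elemental amino acids, on casein, averaged, and between controls. They were 221, 927, 1423 and 417 in DESeq2, 166, 1120, 1941 and 313 once the lymph node was fitted, 5, 5, 344 and 177 within libraries with lymph node transcripts, and 0, 172, 320 and 0 within those without. Without the 2 libraries highest in Acta1 they were 8 on elemental amino acids and 170 between controls, and with only 2 diets in the fit 23, 339 and 2, in the order elemental, casein and controls. With single libraries left out the all-gene counts ran from 7 (without elemental control 5) to 252 (without elemental control 1), from 316 (casein control 6) to 825 (casein control 5), from 862 (elemental MR 4) to 1301 (elemental control 1), and from 24 (elemental control 3) to 202 (elemental control 2), in the same order. Once the lymph node was fitted, 62 of the 166 and 431 of the 1120 were lower, beside 4 of 37 and 70 of 579. The set without lymph node transcripts has 1 elemental MR library, which is assumed to vary like the other groups.

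No paired analysis was possible because the labels give each mouse its own number and share none between diets.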

Other observations

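Among the 10 genes, levels moved together most for Gclm with Gsr (Pearson r = 0.61 over 24 libraries), Gclc with Gclm (0.59), the 2 subunits of glutamate-cysteine ligase, and Gss with Gpx4 (0.58). After removing diet means these were 0.49, 0.58 and 0.51. Gclm with Gpx4 went from 0.51 to 0.049, and Oplah with Gclm from 0.49 to 0.17. The lowest values were Oplah with Ggt5 (-0.54) and Ggct with Gpx3 (-0.45). The genes share library depth and tissue makeup, so these are descriptions.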
